A study of Mus musculus with 8 samples.

Results

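Endothelial genes were followed in RNA of sorted mouse osteoblasts. These are 10 genes chosen by symbol from the 21154 genes of the count table, and all 10 were present: Pecam1, Cdh5, Emcn, Kdr, Flt1, Flt4, Tek, Tie1, Eng and Plvap. The cells came from the bone of female Col2.3-GFP mice, in which green fluorescent protein is driven by a Col1a1 promoter fragment active in bone-forming cells. Mice aged 8 to 10 weeks received 4 intravenous injections, 1 week apart, of doxorubicin at 5 mg/kg (DOX, n = 5 libraries) or of phosphate-buffered saline (PBS, n = 3), and GFP-positive cells were sorted 8 weeks after treatment. Doxorubicin is an anthracycline used in chemotherapy. PBS replicate 1 and DOX replicates 1 and 2 were labelled batch 1, and the other 5 libraries batch 2. The library titled DOX replicate 1 carries a treatment tag of PBS. It was counted as DOX by its title, and each test was also run leaving it out or counting it as PBS.

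Endothelial cells line blood vessels. VEGF receptors (KDR, FLT1, FLT4), the angiopoietin receptor TEK with its relative TIE1, and the TGF-beta and BMP co-receptor endoglin (ENG) carry the signals that build vessels, while PECAM1 and VE-cadherin (CDH5) hold the cells together. In bone, capillaries rich in endomucin (EMCN) and PECAM1 run close to bone-forming cells, and marrow sinusoids carry plasmalemma vesicle protein (PLVAP) and FLT4. The GFP gate does not select endothelial cells, so these transcripts show what the sorted fraction held beside or within osteoblasts. In bulk RNA, fewer cells of a type and less RNA per cell cannot be told apart.

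Library totals ran from 39419027 to 44299591 counts. The 9 genes of the osteoblast list took between 178656 and 532270 CPM (counts scaled to the TMM-adjusted size of the library). They were thus abundant in every library, as the label of osteoblasts states. The labels call the libraries biological replicates and do not say whether each came from 1 mouse, so p-values measure the spread between these libraries. The kit does not mark strand, so reads of an overlapping antisense gene cannot be told apart from those of the gene named. PBS replicate 1 and DOX replicate 1 had the lowest share of type I collagen counts, at 19.1% and 23.2%, against 26.0% to 39.5% elsewhere. Hemoglobin genes took 28.3 to 167 CPM, here of unscaled totals, in batch 1 and 2.04 to 7.74 CPM in batch 2.

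Promoters are shown for 4 genes that differ in how they behaved across the libraries: Kdr, Tie1 and Emcn, whose counts came almost wholly from batch 1, and Eng, whose counts did not. ETS factors, which regulate many endothelial genes, bind DNA around the core GGAA. The sequences are from RefSeq, build GRCm38.p6, 250 bases before to 50 after the start of the gene, on the gene's strand, with each GGAA or its complement TTCC in capitals. They lie at chr5:75978406-75978705 (minus strand) for Kdr, chr4:118489800-118490099 (minus) for Tie1, chr3:137340828-137341127 (plus) for Emcn and chr2:32646345-32646644 (plus) for Eng.
Kdr: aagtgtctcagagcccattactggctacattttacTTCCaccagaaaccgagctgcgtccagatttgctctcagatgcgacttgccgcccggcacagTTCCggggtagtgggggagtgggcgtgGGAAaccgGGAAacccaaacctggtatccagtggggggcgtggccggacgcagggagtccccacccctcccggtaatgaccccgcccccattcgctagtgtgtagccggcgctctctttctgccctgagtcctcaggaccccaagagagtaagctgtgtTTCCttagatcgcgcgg
Tie1: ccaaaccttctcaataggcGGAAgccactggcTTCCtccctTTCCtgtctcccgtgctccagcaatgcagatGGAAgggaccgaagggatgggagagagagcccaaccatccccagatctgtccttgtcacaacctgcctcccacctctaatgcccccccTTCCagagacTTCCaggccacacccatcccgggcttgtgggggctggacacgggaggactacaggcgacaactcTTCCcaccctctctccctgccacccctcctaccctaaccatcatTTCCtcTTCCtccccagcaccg
Emcn: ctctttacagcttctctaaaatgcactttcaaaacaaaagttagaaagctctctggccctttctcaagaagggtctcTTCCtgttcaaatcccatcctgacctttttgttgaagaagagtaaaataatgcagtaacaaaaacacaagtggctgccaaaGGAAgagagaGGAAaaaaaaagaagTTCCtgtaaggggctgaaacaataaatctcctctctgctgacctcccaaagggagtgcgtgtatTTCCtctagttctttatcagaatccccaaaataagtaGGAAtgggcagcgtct
Eng: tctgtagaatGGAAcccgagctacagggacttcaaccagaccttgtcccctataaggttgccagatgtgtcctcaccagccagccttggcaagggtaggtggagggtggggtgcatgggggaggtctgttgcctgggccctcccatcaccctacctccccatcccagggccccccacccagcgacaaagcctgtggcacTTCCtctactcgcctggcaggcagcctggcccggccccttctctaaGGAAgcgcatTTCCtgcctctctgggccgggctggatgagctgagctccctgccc
The Tie1 window held 9 matches to GGAA on either strand, and 1.59% of the 32851 promoters in the table held at least as many. Emcn held 6 matches (15.7% of promoters held at least as many), Kdr held 5 (28.6%) and Eng held 4 (46.3%). At least 1 match was present in 96.0% of promoters, with a median of 3 per promoter. The longer AGGAAG, which overlaps GGAA, was found 2 times each in Tie1, Emcn and Eng and was not found in Kdr; it was present in 35.4% of promoters. The Sp1-type box GGGCGG was found 2 times in Kdr and was not found in Tie1, Emcn or Eng, against 35.7% of promoters with a match. Table entries existed for 7 of the 10 genes. These matches describe the letters of the windows, and Eng, with its different pattern of counts, did not lack the GGAA core.

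The junction genes were high in PBS replicate 1 and DOX replicate 2, both of batch 1. Cdh5, which encodes the cadherin of endothelial junctions, had 105, 6 and 77 counts in PBS replicate 1, DOX replicate 1 and DOX replicate 2. In batch 2 it had 0 and 0 counts in PBS replicates 2 and 3, and 0, 6 and 3 counts in DOX replicates 3, 4 and 5. A count of 0 allows up to 3 counts, or 0.0561 to 0.0852 CPM depending on the library, for counting error only. Pecam1, which encodes an adhesion molecule that platelets and leukocytes also carry, had 238, 30 and 94 counts in the batch 1 libraries in the same order. It had 21 and 50 counts in the PBS libraries of batch 2 and 28, 30 and 34 in the DOX libraries of batch 2. Cdh5 was thus close to or at 0 in 6 libraries, while Pecam1 was detected in all 8, and neither separated DOX from PBS.

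Of the receptors for VEGF, Kdr and Flt1 were counted mainly in batch 1, and Flt4 mainly in DOX replicate 2. Kdr, which encodes the main signalling receptor for VEGF-A, had 247, 47 and 158 counts in batch 1. In batch 2 it had 0 and 0 counts in the PBS libraries and 4, 4 and 0 in the DOX libraries, so 98.3% of its counts came from batch 1. All 3 batch 1 libraries lay above every batch 2 library. Flt1, which encodes a VEGF receptor that also acts as a decoy, had 50, 11 and 28 counts in batch 1. It had 0 and 5 counts in PBS and 0, 3 and 0 counts in DOX of batch 2, again without overlap between batches. Emcn was the third gene without overlap, and 4.4% of all tested genes had every batch 2 library below every batch 1 library. All 3 genes passed the filter on low counts through batch 1, so nothing is read from their number. Flt4, the receptor for VEGF-C on lymphatic and sinusoidal endothelium, had 45, 13 and 176 counts in batch 1. In batch 2 its counts were 25 and 17 in PBS and 5, 2 and 5 in DOX. Flt4 was lower in 4 DOX libraries than in every PBS library, and highest of all 8 libraries in DOX replicate 2.

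Tek and Tie1 were seen mainly in 2 libraries. Tek, the angiopoietin receptor, had 87 counts in PBS replicate 1, 0 in DOX replicate 1 and 104 in DOX replicate 2. In batch 2 it had 4 and 0 counts in PBS and 0, 9 and 7 in DOX. Tie1, which encodes the partner of TEK, had 104, 0 and 71 counts in batch 1, 0 and 0 in PBS of batch 2, and 9, 5 and 1 in DOX of batch 2. DOX replicate 1 therefore had no count of either gene at a depth where it held 47 counts of Kdr and 84 of Emcn. Emcn, the sialomucin of capillaries and sinusoids, had 118, 84 and 42 counts in batch 1. Its counts in batch 2 were 1 and 0 in PBS and 0, 14 and 0 in DOX. Emcn was the only one of the 10 genes for which DOX replicate 1 exceeded DOX replicate 2.

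Eng and Plvap stood apart by their level. Eng, which skeletal progenitor and stromal cells also express, had 579, 211 and 552 counts in batch 1, 310 and 242 in PBS of batch 2, and 303, 324 and 432 in DOX of batch 2. DOX replicate 1 was the lowest and DOX replicate 2 the highest in CPM, at 4.23 and 13.7. Plvap, which forms the diaphragms of fenestrated and sinusoidal endothelium, had 570, 311 and 521 counts in batch 1, 191 and 197 in PBS of batch 2, and 223, 185 and 258 in DOX of batch 2. Both genes were detected at 185 counts or more in every library, and their groups overlapped.

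**Figure D1:**
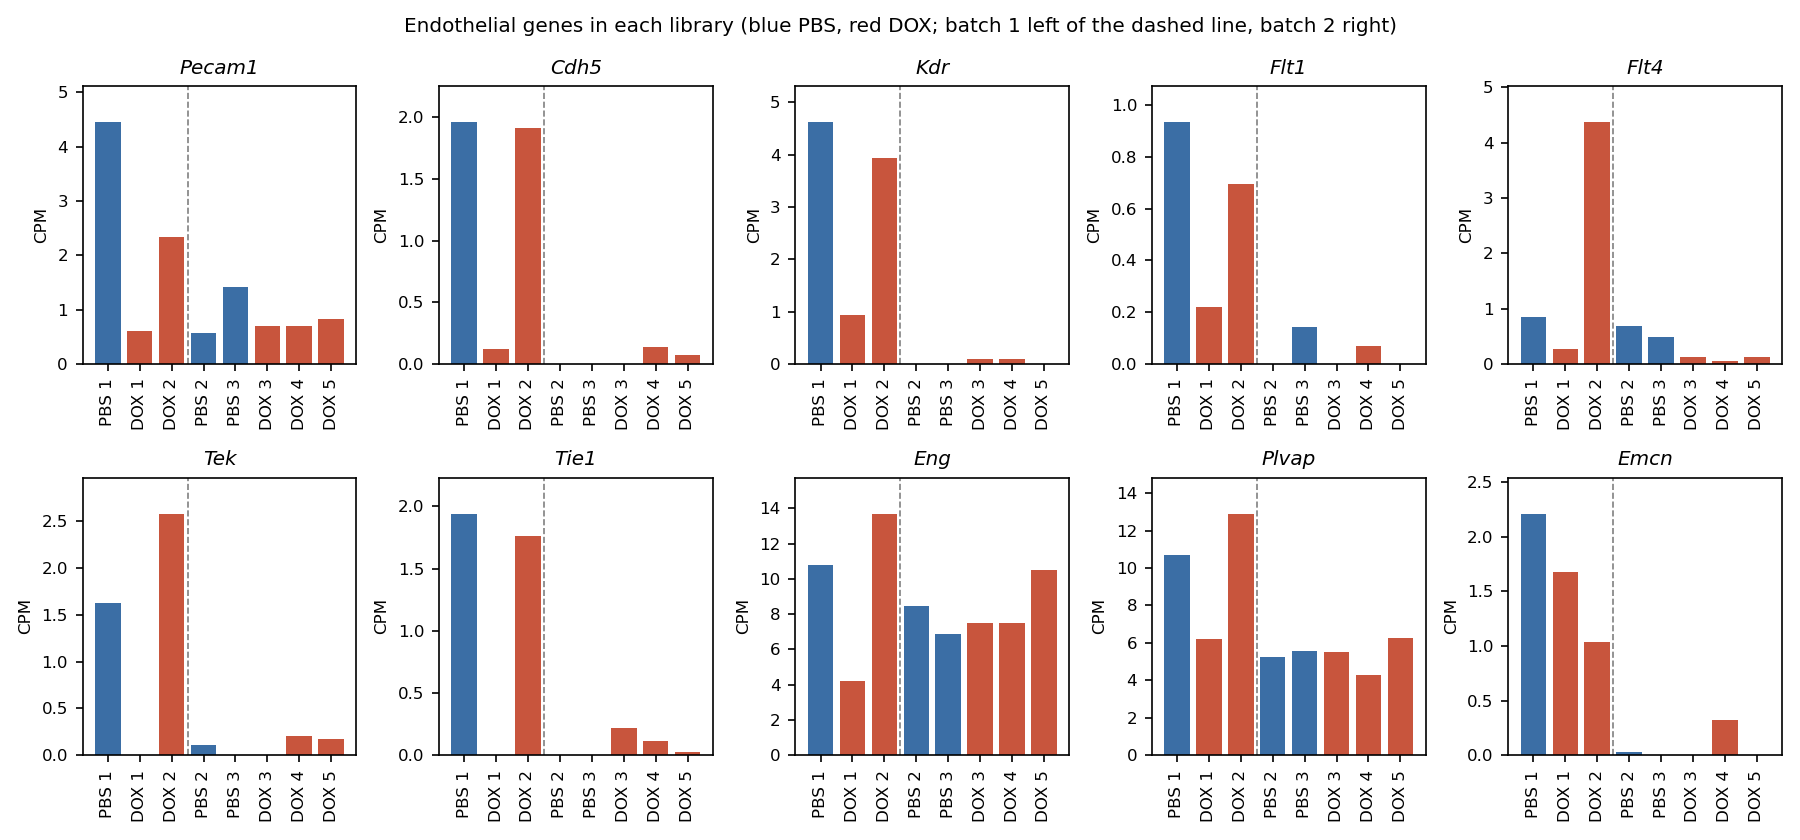
Bars give CPM (y axis, starting at 0, own scale per gene) of each endothelial gene in each library (x axis), PBS in blue and DOX in red. PBS replicate 1 and DOX replicate 2 hold the highest bars for 9 of the 10 genes, Emcn being the exception, and only Pecam1, Flt4, Eng and Plvap have counts in every batch 2 library.

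Scaled for exon length, the order of the levels was the same at the top in both batches. Lengths were the merged exons of each gene in GENCODE M21. Plvap had a mean of 5.00 CPM per kilobase in batch 1, where Eng had 2.37, and Eng had 2.01 in batch 2. The other 8 genes lay between 0.0457 (Flt1) and 0.395 (Pecam1) CPM per kilobase in batch 1. In batch 2 they lay between 0.00313 (Flt1) and 0.135 (Pecam1). Between Plvap and Eng the order held in all 3 batch 1 libraries and in all 5 batch 2 libraries. Among Kdr, Cdh5, Emcn and Tek, with batch 1 means of 0.350, 0.317, 0.304 and 0.298 CPM per kilobase, the libraries varied far more than the genes differed.

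Eng and Plvap carried most of the summed signal, and the other 8 genes differed more between libraries in proportion. Eng and Plvap together stood at 21.5 CPM in PBS replicate 1, 26.7 CPM in DOX replicate 2 and 10.5 to 16.7 CPM elsewhere. They thus also contributed to the difference between libraries. Summed over the 10 genes, PBS replicate 1 stood at 40.1 CPM and DOX replicate 2 at 45.3 CPM, and the other 6 libraries at 13.4 to 17.9 CPM. The 8 genes other than Eng and Plvap summed to 18.6 CPM in both PBS replicate 1 and DOX replicate 2. They reached 3.82 CPM in DOX replicate 1 and 1.14 to 2.04 CPM in batch 2. Eng and Plvap made up 53.6% and 58.9% of the sum in the 2 highest libraries, 73.2% in DOX replicate 1 and 85.9% to 93.2% in batch 2. Setting Eng and Plvap apart from the other genes was a choice made after their values were seen.

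**Figure D2:**
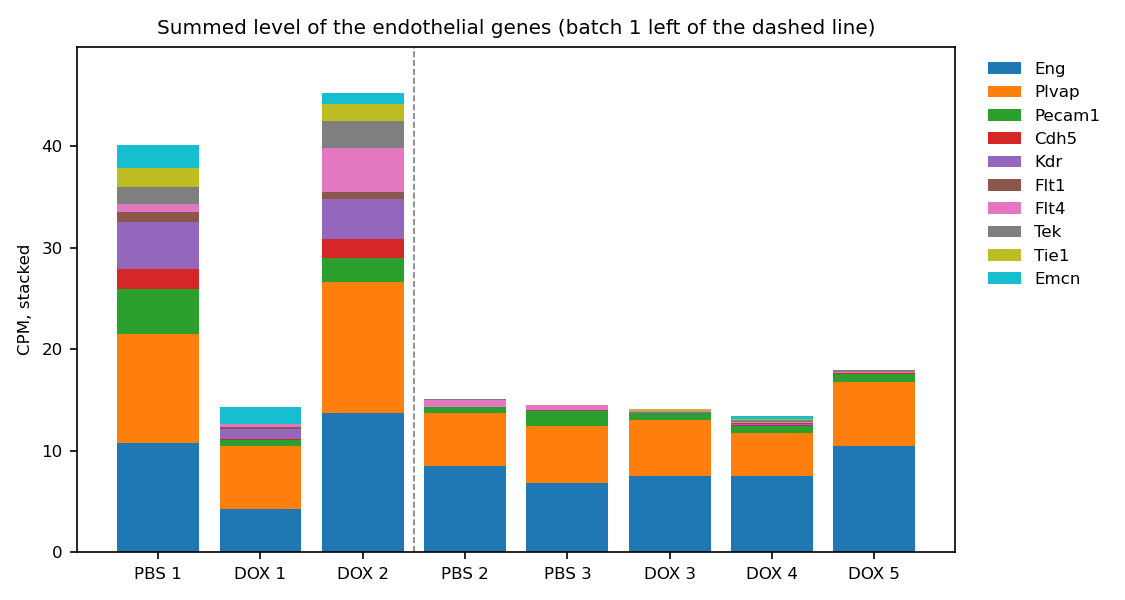
Stacked bars give the summed level of the 10 endothelial genes in each library in CPM (y axis), coloured by gene, with Eng and Plvap at the bottom. The 2 tallest bars are PBS replicate 1 (40.1 CPM) and DOX replicate 2 (45.3 CPM), and the part above Eng and Plvap is at most 3.82 CPM in the other libraries.

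The comparison of DOX with PBS addresses the state of the sorted cells 8 weeks after the drug, and no difference of an endothelial gene passed the test. EdgeR's quasi-likelihood test, with batch and group as terms and Benjamini-Hochberg adjustment over 16547 genes, called none of the 10 genes and none of the genes tested (0% called). The unadjusted p was under 0.05 for 604 genes (3.65%; 2.02% higher and 1.63% lower in DOX), none of them among the 10. DESeq2 called 11 genes (0.0665%), none of them among the 10, and limma-voom with quality weights called 0, with 1591 genes at an unadjusted p under 0.05. In edgeR 5 of the 10 genes had a positive and 5 a negative log2 fold change, with a median of 0.10 against 0.02 over all genes tested. The split was 1 positive and 9 negative (median -0.61) with voom, and 2 positive and 8 negative (median -0.43) without a batch term. No gene of the 10 had all DOX libraries on one side of all PBS libraries, which 2.42% of tested genes did. The edgeR count of calls was 0 as well without DOX replicate 1 and with that library counted as PBS. With it counted as PBS, the log2 fold changes of Eng and Plvap were 0.41 and 0.22, opposite in sign to those with it counted as DOX.

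The precision of this comparison differed widely between the genes. For Eng the PBS mean was 8.73 ± 1.99 CPM (SD, n = 3) and the DOX mean 8.67 ± 3.58 CPM (n = 5). DOX differed from PBS by -0.01 ± 0.33 (SE) on the log2 scale, with a 95% interval from -0.74 to 0.71. Plvap means were 7.16 ± 3.03 and 7.04 ± 3.40 CPM, a log2 difference of -0.07 ± 0.25 (SE) whose interval ran from -0.62 to 0.49. For the genes near 0 in batch 2 the intervals were far wider, from -1.86 to 2.27 for Kdr and from -2.72 to 4.32 for Tie1. Kdr means were 1.54 ± 2.67 CPM for PBS and 1.01 ± 1.67 CPM for DOX, where the SD exceeds the mean in each group because 1 library of each group holds most of the counts. Cdh5, Emcn, Tek and Tie1 had positive log2 fold changes between 0.42 (Tek) and 0.80 (Tie1). Those of Flt1 and Flt4 were -1.27 ± 1.24 and -1.36 ± 1.12 (SE). The adjusted p of each of these genes was 0.998, and that of Eng was 1.

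Pecam1 and Flt4 had the smallest unadjusted p of the 10. Mean Pecam1 was 2.15 ± 2.04 CPM for PBS (SD, n = 3) against 1.03 ± 0.735 CPM for DOX (n = 5), a log2 difference of -0.90 ± 0.52 (SE; unadjusted p = 0.115 and adjusted p = 0.998 in edgeR). Within batches DOX minus PBS was -1.86 in batch 1 and -0.29 in batch 2 on the log2 CPM scale. Mean Flt4 was 0.669 ± 0.180 CPM for PBS against 0.985 ± 1.90 CPM for DOX. The higher DOX mean came from DOX replicate 2 alone, at 4.37 CPM, against 0.0462 to 0.260 CPM in the other DOX libraries. Without that library the log2 fold change of Flt4 was -2.29 ± 0.75 (SE; edgeR adjusted p = 0.455), and in batch 2 alone it was -2.55 ± 0.96 (SE; adjusted p = 0.364). Neither value passed.

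Within the batches the direction of the DOX difference was not shared. In batch 1, where 1 PBS library faced 2 DOX libraries, 9 of the 10 genes had a lower mean log2 CPM in DOX, from -2.77 for Tie1 to -0.25 for Plvap, and Flt4 differed by 0.39. DOX replicate 1, the library tagged PBS, lay below PBS replicate 1 for every gene. DOX replicate 2 lay above PBS replicate 1 for Flt4, Tek, Eng and Plvap and below it for the others. The value of Tie1 rests on 0 counts in DOX replicate 1, which stand at -4.41 on this scale. In batch 2 the difference was positive for Cdh5 (1.11), Emcn (0.66), Kdr (1.07), Tek (0.68), Tie1 (1.64) and Eng (0.13), and negative for Pecam1 (-0.29), Flt1 (-0.57), Flt4 (-2.17) and Plvap (-0.03). The batch 2 values of Cdh5, Kdr and Tie1 rest on 9, 8 and 15 counts over 3 DOX libraries against 0 over 2 PBS libraries. Tested as an interaction of batch and group in edgeR, the difference between batches called 0 of 16547 genes (0%), and 1886 genes (11.4%; 5.33% higher and 6.07% lower) had an unadjusted p under 0.05, none of them among the 10. DESeq2 called 265 genes (1.6%), again none of the 10. Without DOX replicate 2, batch 1 held only PBS replicate 1 and DOX replicate 1. In that edgeR fit 2413 of 16547 genes had an unadjusted interaction p under 0.05. Among them were 6 of the 10, and none of the 10 was called. Of the 6, Cdh5, Kdr, Tek and Tie1 had passed the filter through batch 1, so nothing is read from their number. Flt4 then moved from -4.02 to -0.87 and Eng from 0.42 to 1.51, and the smallest adjusted p was 0.117, for Tie1. The fitted values of Tie1 and Tek moved from 6.54 to 14.79 and from 1.49 to 10.29, and they depend on the prior count because DOX replicate 1 had 0 counts of both. With all libraries the smallest edgeR adjusted p of the 10 was that of Flt4 (0.444), followed by Kdr (0.453).

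Between the batches none of the 10 genes passed after adjustment in edgeR. The 4 genes that met the filter on low counts within batch 2 as well had log2 fold changes, batch 2 minus batch 1, of -1.44 ± 0.52 (SE) for Pecam1, -3.39 ± 1.11 for Flt4, -0.23 ± 0.32 for Eng and -0.89 ± 0.24 for Plvap. The other 6 entered the test through batch 1, where they were high, so the sign of their values was favoured by the filter and no count or median over the 10 is given. The batch term of the same fit called 15 of 16547 genes (0.0907%), a count that was 0 without PBS replicate 1 and 922 without DOX replicate 2. Kdr, with the smallest p of the 10, had a value of -6.26 ± 0.97 (SE; adjusted p = 0.0673). It passed in DESeq2 (adjusted p = 2.52e-07), in edgeR with no filter (0.0394), with a stricter filter (0.0382) and without DOX replicate 2 (0.0332). DESeq2 called 498 genes between batches (3.01%), among them Kdr, Cdh5, Emcn, Flt4, Tie1 and Plvap. Of these, Kdr, Cdh5, Emcn and Tie1 entered the filtered fits through batch 1, so nothing is read from their passing. For Plvap, with counts in every library, the adjusted p was 0.21 in edgeR and 0.0416 in DESeq2, and for Eng it was 0.773 in edgeR.

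The filter asked for 0.236 CPM before scaling in at least 2 libraries. Of all genes tested, 14.6% had an unadjusted edgeR p under 0.05 between batches, 6.78% higher and 7.78% lower in batch 2. For the 4 genes counted in batch 2 as well, that p was 0.019 for Pecam1, 0.0121 for Flt4, 0.00436 for Plvap and 0.491 for Eng. The values of Flt4 and Pecam1 moved with single libraries. Without DOX replicate 2 Flt4 stood at -0.99 (edgeR adjusted p = 0.459) and Pecam1 at -1.09 (adjusted p = 0.331), and without PBS replicate 1 Pecam1 stood at -0.99 (adjusted p = 0.785). In none of these 3 values was the unadjusted p under 0.05. Batch 1 held 81.2% of the counts of Flt4, 69.0% of Pecam1, 57.1% of Plvap and 45.4% of Eng, with 36.6% of all counts in batch 1. Without PBS replicate 1 and DOX replicate 2 together, batch 1 rests on DOX replicate 1 alone. In that fit 6 genes were still lower in batch 2: Emcn (-3.91), Kdr (-3.82), Flt1 (-3.07), Flt4 (-1.40), Cdh5 (-0.74) and Plvap (-0.22). Pecam1 (0.29), Tek (5.41), Tie1 (5.35) and Eng (1.00) had the opposite sign. The values of Tek and Tie1 rest on 0 counts in DOX replicate 1. Emcn, Kdr, Flt1, Cdh5, Tek and Tie1 entered the test through batch 1, so nothing is read from their signs.

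**Figure D3:**
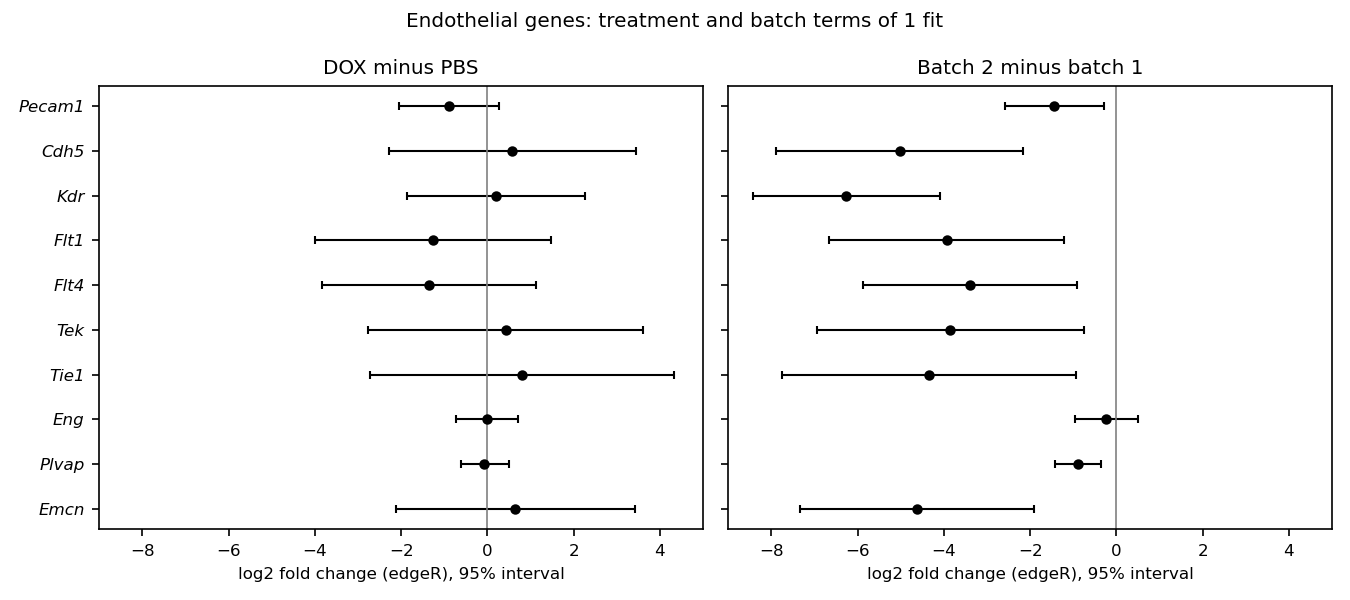
Points give the log2 fold change of each endothelial gene (x axis) for DOX minus PBS and for batch 2 minus batch 1, from 1 edgeR fit over 8 libraries, and lines give the 95% interval. All intervals for treatment include 0. For batch, the intervals of Pecam1, Flt4 and Plvap lie below 0, and that of Eng runs from -0.95 to 0.49. The other 6 genes entered the test through batch 1, where they were high, so nothing is read from their batch intervals.

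The genes varied together across libraries, mostly through PBS replicate 1 and DOX replicate 2. Over the 45 pairs of genes the Pearson correlation of log2 CPM across 8 libraries had a median of 0.69, and 40 pairs exceeded 0.5. The highest was 0.91, between Emcn and Kdr, and Cdh5 had 0.90 with both Kdr and Tek. Eng was the least alike, from 0.01 with Emcn to 0.82 with Tek. Without PBS replicate 1 and DOX replicate 2 the median over pairs was -0.11 and 6 pairs exceeded 0.5. Among these 6 libraries Emcn and Kdr had 0.88 and Cdh5 and Emcn 0.75, where DOX replicate 1 is the highest library for Emcn and Kdr. In the same 6 libraries Eng ran against Kdr (-0.87). These correlations are descriptions, since the libraries share a batch and many values stand at or near 0 counts.

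**Figure D4:**
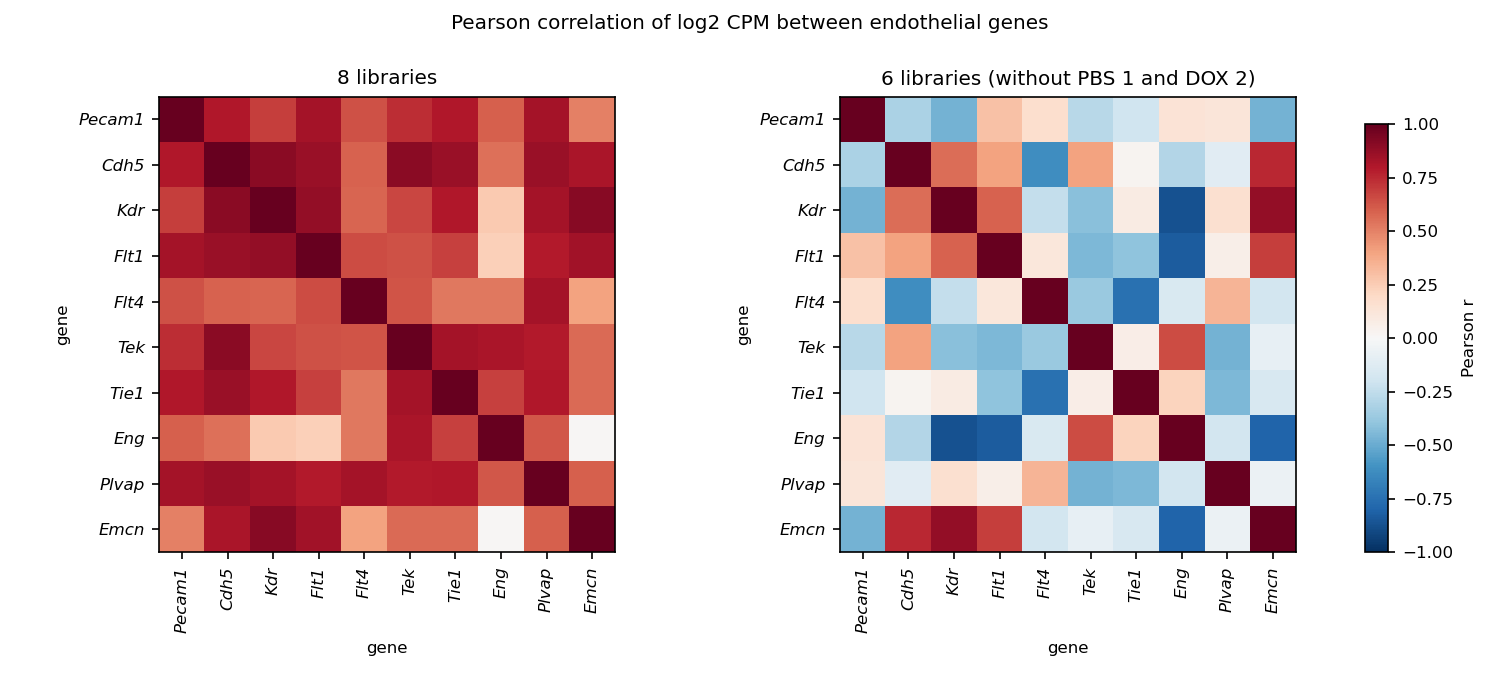
Colours give the Pearson correlation of log2 CPM between each pair of endothelial genes (both axes), over 8 libraries at the left and over the 6 libraries without PBS replicate 1 and DOX replicate 2 at the right. All 45 pairs are positive at the left, and 25 pairs are below 0 at the right.

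Other genes known from endothelium were detected most often in PBS replicate 1 and DOX replicate 2, but not every gene followed these libraries. Of 28 listed genes 27 were measured, and 26 and 27 of them had counts in PBS replicate 1 and DOX replicate 2. In the other libraries 11 (PBS replicate 3) to 21 (DOX replicate 4) had counts. Esam, which encodes a junction molecule, had 166, 28 and 117 counts in batch 1 and 9 counts in all of batch 2. Sox7 and She had no counts in batch 2. S1pr1, the sphingosine-1-phosphate receptor, was the exception by level, at 97.3 to 160 CPM in every library, and Vwf had more counts in batch 2 (114) than in batch 1 (56). Tmem204 stood at 5.81 to 6.83 CPM in batch 1 and at 6.74 and 6.94 CPM in DOX replicates 4 and 5. In the other batch 2 libraries it stood at 3.09 to 3.43 CPM. Ushbp1 was highest in DOX replicate 1, at 115 counts. Cd34 was highest in PBS replicate 1 and DOX replicate 2, at 175 and 128 counts. It also had 102 and 109 counts in DOX replicates 4 and 5, and at most 75 elsewhere. These genes except S1pr1 and Tmem204 were named after their values were seen. Without S1pr1 the list summed to 37.5 and 40.5 CPM in PBS replicate 1 and DOX replicate 2, and to 6.87 to 18.3 CPM elsewhere. Of 23 tested members 14 were higher and 9 lower in DOX with a median of 0.21, and 21 were lower in batch 2. None was called by edgeR in either comparison or in their interaction, and 0, 13 and 0 had an unadjusted p under 0.05. For batch that p was reached by 14.6% of all genes tested. Of the 27 measured genes 9 had at least 90% of their counts in batch 1, and the filter on low counts favours such genes, so nothing is read from the 13.

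Subtypes of vessel were covered by short lists. The sinusoid list (5 measured) summed to 47.3 to 101 CPM in batch 1 and 15.5 to 54.4 CPM in batch 2, and most of it was Vcam1, an adhesion molecule that stromal cells also express. Stab2, a scavenger receptor of sinusoids, had 199 counts in DOX replicate 2 and at most 13 in any other library. Mmrn1 of the lymphatic list likewise had 53 counts in DOX replicate 2 and at most 3 elsewhere. Both were singled out after their values were seen, and Flt4 was highest in the same library. Prox1, the transcription factor of lymphatic endothelium, had 12 counts there and at most 16 in any library. Gpr182 and Dnase1l3 of the sinusoid list had 75 and 27 counts in DOX replicate 2 and at most 15 and 7 elsewhere. These were also named after their values were seen. Vcam1, Stab1, Pdpn and Reln did not share that pattern. Stab1 had 103 counts in DOX replicate 2 and 68 to 130 over all libraries. Reln had 44 counts in PBS replicate 1 and 10 in DOX replicate 2. The lymphatic list (4 measured), led by Pdpn, summed to 11.3 to 21.6 CPM in batch 1 and 27.3 to 34.8 CPM in batch 2. The arterial list (8 measured) summed to 18.7 to 35.9 CPM in batch 1 and 10.9 to 17.3 CPM in batch 2, led by the Notch target Hey1. In edgeR none of these genes was called, and 1 of 4 tested sinusoid genes, 4 of 5 arterial genes and 2 of 3 lymphatic genes were on the higher side in DOX.

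Ligands and partners of the receptors were mostly well above the receptors in counts, and none differed between DOX and PBS by the test. Of 22 measured genes 21 were tested, 8 of them higher and 13 lower in DOX, with a median of -0.05, no calls in edgeR and none at an unadjusted p under 0.05. Vegfa, the ligand of KDR and FLT1, averaged 63.0 ± 11.3 CPM over PBS (SD, n = 3) against 57.7 ± 5.33 CPM over DOX (n = 5), and was highest in PBS replicate 1 at 70.5 CPM. Pgf, which encodes a ligand of FLT1, stood at 32.1 ± 4.51 and 30.6 ± 5.92 CPM. Angpt2, a context-dependent TEK ligand, stood at 44.2 ± 9.93 and 46.8 ± 10.1 CPM. Angpt4, a further TEK ligand, stood at 57.4 ± 38.7 and 71.2 ± 16.1 CPM, with 24.3 CPM in PBS replicate 3 and 100 CPM in PBS replicate 1. Nrp2, a co-receptor for VEGF-C and semaphorins, was the most abundant of the list. It ranged from 848 CPM in PBS replicate 1 to 2257 CPM in PBS replicate 2, and was thus lowest in the library with the highest Kdr. Nrp1, a co-receptor for VEGF-A, averaged 52.7 ± 2.24 CPM over PBS against 43.0 ± 7.58 CPM over DOX, a log2 difference of -0.31 ± 0.15 (SE; edgeR adjusted p = 0.998).

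Genes around endoglin did not pass the test either. Endoglin presents BMP9 to ACVRL1 and BMPR2 and modulates TGF-beta signalling through SMAD1 and SMAD5. Mean Bmpr2 was 34.6 ± 6.20 CPM for PBS (SD, n = 3) against 33.4 ± 5.25 CPM for DOX (n = 5). The log2 fold changes were -0.22 ± 0.20 (SE) for Tgfbr1, -0.24 ± 0.16 for Tgfbr2, -0.04 ± 0.12 for Smad1, 0.09 ± 0.15 for Smad5 and 0.05 ± 0.14 for Smad6. Smad7, an inhibitor of the pathway, had -0.37 ± 0.17, and the target genes Id1 and Id3 had 0.18 ± 0.20 and 0.19 ± 0.13. Tgfbr3, the co-receptor betaglycan, had 0.25 ± 0.31, with 8.68 CPM in PBS replicate 3 and 56.8 CPM in PBS replicate 1. The edgeR adjusted p of each was 0.998.

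Of the marker lists of other cells, the erythroid list separated the batches, and the sums of the megakaryocyte and platelet, macrophage, other leukocyte, mural and reticular lists overlapped between them. The erythroid list (8 measured) summed to 157, 109 and 39.4 CPM in PBS replicate 1, DOX replicate 1 and DOX replicate 2, and to 3.07 to 11.0 CPM in batch 2. All 8 of its genes were lower in batch 2, and edgeR called 5 of them: Hbb-bs (-4.32 ± 0.45, SE; adjusted p = 0.0159), Hba-a1, Hba-a2, Hbb-bt and Slc4a1. Over all genes tested, edgeR called 0.0907% for batch. Slc4a1, with 0 to 13 counts in the batch 2 libraries, entered the test through batch 1, where it was high. Nothing is read from its sign or its call. The globin genes are near-identical copies, so their separate counts are uncertain. The megakaryocyte and platelet list (9 measured) summed to 72.3 CPM in PBS replicate 1 and to 27.2 and 30.2 CPM in the DOX libraries of batch 1. In batch 2 it summed to 9.22 and 10.7 CPM in PBS and to 23.9 to 28.8 CPM in DOX. By this sum DOX was thus below PBS in batch 1 and above it in batch 2. The largest part of the sum was Itgb3, at 46.2, 13.5 and 26.9 CPM in PBS replicate 1, DOX replicate 1 and DOX replicate 2. In batch 2 Itgb3 stood at 8.86 and 9.58 CPM in PBS and 14.1 to 22.8 CPM in DOX. Ppbp stood at 18.4, 8.13 and 1.52 CPM in the same batch 1 libraries. In the fit over both batches all 7 tested genes of that list had a positive value for DOX, with a median of 1.08, none called by edgeR and 0 at an unadjusted p under 0.05. For the interaction with batch, none was called and 5 of the 7 had an unadjusted p under 0.05, with a median of 5.98. Over all genes tested, 11.4% reached that p for the interaction in edgeR. Batch 1 held 1 PBS library, and 4 and 6 of the 9 measured genes had 0 counts in PBS replicates 2 and 3. Fitted values of genes at 0 counts depend on the prior count, so nothing is read from the 5. The macrophage list summed to 8.60 to 15.1 CPM over all libraries, with 0 to 4 of its 8 measured genes at 0 counts. The other leukocyte list ran from 5.81 CPM in DOX replicate 2 to 125 CPM in DOX replicate 5. The mural cell list summed to 81.8 to 184 CPM in batch 1 and 139 to 168 CPM in batch 2. Reticular stromal genes summed to 664 to 931 CPM in batch 1 and 468 to 681 CPM in batch 2. DOX replicate 1 had a high erythroid sum with a low endothelial one, and DOX replicate 2 the reverse order. The part of these cells in the endothelial values was not tested.

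**Figure D5:**
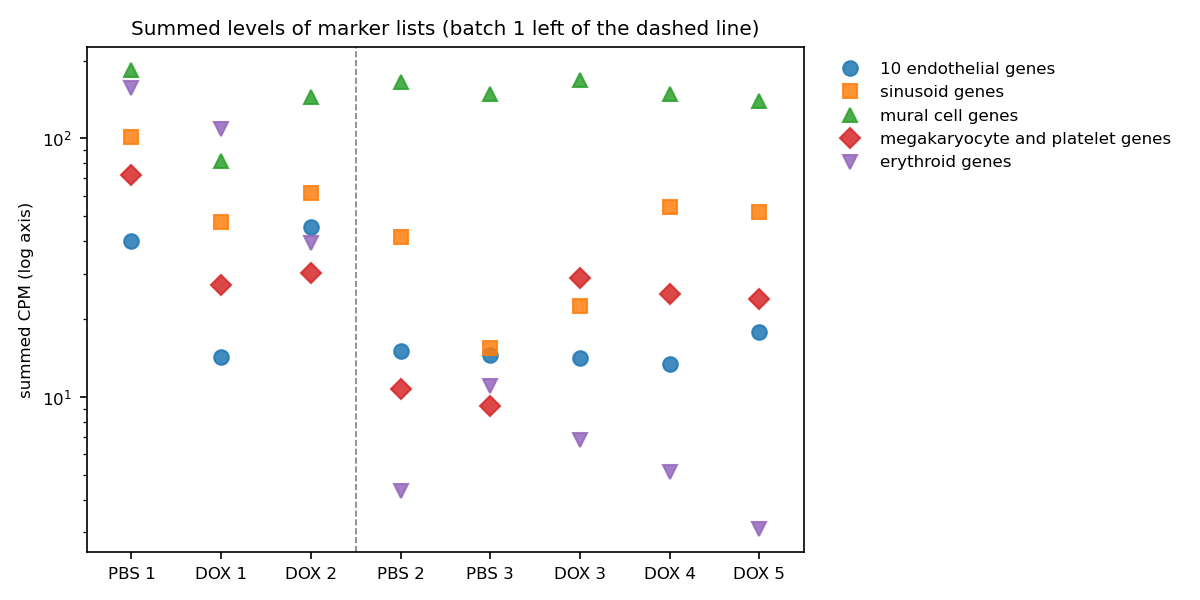
Points give the summed CPM (y axis, log scale) of 5 marker lists in each library (x axis). Erythroid genes are higher in all 3 batch 1 libraries than in any batch 2 library, whereas the 10 endothelial genes stand out in PBS replicate 1 and DOX replicate 2 only.

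The genes most like the endothelial pattern were not endothelial markers. Likeness was the Pearson correlation across 8 libraries with the mean of the standardised log2 CPM of the 10 genes, ranked over 10246 genes other than the 10 whose log2 CPM averaged 1 or more. The 8 highest were Znrf1 (0.96), Xdh (0.94), Fkbp5 (0.94), Fbxo31, Ggps1 and Ybx3 (0.93 each), and Mcl1 and Fkbp4 (0.92 each). Xdh, which encodes xanthine dehydrogenase, stood at 92.5 and 103 CPM in PBS replicate 1 and DOX replicate 2 and at 55.5 to 72.0 CPM elsewhere. Fkbp5, a glucocorticoid-induced chaperone gene, stood at 16.7 CPM in PBS replicate 1, 10.4 in DOX replicate 2, 6.35 in DOX replicate 1 and 3.16 to 4.25 CPM in batch 2. Such rankings rest on the same 2 libraries, and the endothelial markers near 0 in batch 2 fall below the expression limit of the ranking.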

How the data were processed

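RNA of sorted cells was made into libraries with a SMART-Seq kit that does not mark strand and has no molecular identifiers, so floors cover counting error only. The authors deposited whole-number counts per gene, made, per the submitters' processing notes, by trimming (Trim Galore 0.6.6), alignment to build GRCm39 (STAR 2.7.9a) and counting (featureCounts 2.0.1), with SAMtools 1.17, FastQC 0.11.5 and MultiQC 1.7 also named. Not given in the sources used here: annotation, strand setting, and what was done with reads of several matches. The smallest gene total in the table was 10, so genes below that were not analysed here.

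Groups came from the sample titles and batches from the labels. EdgeR 4.0.16 (R 4.3.3) scaled libraries by TMM and kept 16547 of 21154 genes with filterByExpr and the design matrix (minimum count 10, minimum total 15). A filter by group sizes kept 15373 genes and 7 of the 10 endothelial genes, and the choice between both filters was made after seeing which of the 10 passed. The model held batch and group, with a two-sided quasi-likelihood F test and Benjamini-Hochberg adjustment at 0.05. A second model added their interaction. Standard errors come from the fold change and its F value, and log2 CPM used a prior count of 2. DESeq2 1.42.0, limma 3.58.1 with voom, other scalings and filters, a replicate block, batch 2 alone, no batch term and leaving out libraries were the alternatives. The fits were tested on simulated data, and matplotlib 3.10.9 under Python 3.11.15 made the figures. The 10 genes and all lists were chosen with earlier results of these data known. The rule for named genes took all 10, the 2 most abundant tested genes of each other list, list genes past the threshold, ligands and partners with a mean of 10 CPM or more, and 8 genes most alike. Promoter sequences came from RefSeq (GRCm38.p6) and exon lengths from GENCODE M21 (GRCm38), which differ from the authors' build, so no coordinates of the counted genes are given.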

Additional observations from a re-analysis of the deposited data

Results flagged for a closer look

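DOX replicate 2 lay far above the other 4 DOX libraries for 7 of the 10 endothelial genes and for both sums over them. Its level was 2.34 CPM for Pecam1 (next highest DOX library 0.822), 1.91 CPM for Cdh5 (0.139) and 3.93 CPM for Kdr (0.941). It was 4.37 CPM for Flt4 (0.260), 2.58 CPM for Tek (0.208), 1.76 CPM for Tie1 (0.222) and 12.9 CPM for Plvap (6.24). The sum of the 10 genes was 45.3 CPM in that library (next 17.9), and the sum of the 8 genes other than Eng and Plvap was 18.6 CPM (next 3.82). Each has a gap to the next library above Dixon's 95% critical value for 5 samples. Of 12 groups of values looked at 9 met this limit, and the 9 share 1 library and are not independent. The limit's chance rate of 1 in 20 is for like samples with a normal spread. The DOX libraries span both batches, and many of their counts in batch 2 stand at or near 0. The 9 are therefore not set against that rate. PBS, with 3 libraries, could not be looked at in this way.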

How the results depend on the processing

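No alternative gave a call of an endothelial gene between DOX and PBS. Of the values of single genes, 160 kept their direction and side of the threshold and 31 changed sign for DOX against PBS. For batch these numbers were 145 and 6, with 10 that newly passed, and for the interaction 119 and 12. The cause of these changes was not tested.

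DESeq2 called 11 genes for DOX, 498 for batch and 265 for the interaction. With DOX replicate 1 counted as PBS, 6 genes were called for batch. Without PBS replicate 1 and DOX replicate 1 the batch count was 0, and without PBS replicate 1 and DOX replicate 2 it was 226 (both fits were added after seeing the data). Leaving out 1 library at a time gave 0 calls for DOX each time. It gave 0 (without PBS replicate 1) to 922 (without DOX replicate 2) for batch and 0 to 62 (without DOX replicate 2) for the interaction, with 33 without DOX replicate 1.

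For DOX against PBS the log2 fold change changed sign without a batch term for Cdh5 (-0.56), Emcn (-0.30), Kdr (-0.62), Flt4 (0.55) and Tie1 (-0.63), and with voom for Cdh5 (-0.43), Emcn (-0.47), Kdr (-0.93) and Tek (-0.90). Eng was 0.00089 with upper-quartile scaling, 0.15 in batch 2 alone and without PBS replicate 1 and DOX replicate 1, 0.14 without PBS replicate 1 and DOX replicate 2. Eng was 0.41 when DOX replicate 1 was taken as PBS, where Plvap was 0.22. Leaving out 1 library gave ranges of -0.97 to 2.74 for Emcn, -0.20 to 4.46 for Kdr, -0.66 to 1.16 for Tek, -0.30 to 0.20 for Eng and -0.25 to 0.072 for Plvap. With no change of sign, Cdh5 ran from 0.034 to 4.61 and Tie1 from 0.092 to 5.34 (both without PBS replicate 3 and without PBS replicate 1). Flt1 ran from -2.18 (without DOX replicate 4) to -0.26 (without PBS replicate 3), and leaving out PBS replicate 2 or PBS replicate 1 gave the extremes for Pecam1 (-1.28 and -0.43) and Flt4 (-0.81 and -2.55).

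Stricter limits left out genes: 4 of the 10 remained with the stricter filter and 7 with the filter by group size. For batch, Eng was 0.13 with voom and -0.60 to 0.21 when 1 library was left out. Over the fits without 1 library or without a pair of libraries, batch values ran from -0.71 to 1.00 for Eng, -1.90 to 0.29 for Pecam1, -4.53 to 5.41 for Tek and -5.45 to 5.35 for Tie1. The highest of each came without PBS replicate 1 and DOX replicate 2. For the interaction, Flt1 was 0.20 with voom. When DOX replicate 1 was taken as PBS, Pecam1 was -0.32, Tek -0.51, Eng -0.72 and Plvap -0.64. Leaving out 1 library gave -1.82 to 5.99 for Emcn, -3.61 to 4.25 for Flt1, -0.20 to 1.51 for Eng and -0.30 to 0.77 for Plvap. Without PBS replicate 1 the interaction could not be fitted.

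The replicate numbers gave no clear pairing of the samples: deviations of same-numbered libraries correlated at 0.243, -0.04 and 0.227. PBS replicates 1 and 3 correlated best with the DOX library of the same number, which was of the same batch. PBS replicate 2 correlated best with DOX replicate 3. With the replicate block 0 genes were called, Tek was -0.59 and Plvap 0.16. Counts of 25 or fewer in every batch 2 library for 7 of the 10 genes (all but Pecam1, Eng and Plvap) limit what DOX against PBS can show there.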
